A study of Drosophila melanogaster with 2 samples.

Results

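The 3 genes described here, retn, TfAP-2 and pan, encode sequence-specific transcription factors of Drosophila melanogaster. Each held a peak with a high signal in a ChIP-seq experiment whose strain and antibody labels name Dip2. They were chosen by the signal values of these same peak lists, so their signals and ranks are given as a description with no test. A peak was assigned to a gene where its summit lay in the gene body or within 5 kb of it. The experiment used the fly strain Dip2-GFP, labelled as carrying a transgene that expresses a Dip2-eGFP fusion protein. Chromatin of whole embryos of 0 to 18 hours was sonicated to 200 to 800 bp and precipitated with an antibody to GFP, in 2 biological replicates that form 1 group. The antibody field of the labels reads Dip2, while the source field speaks of an insertion targeting Dlip2, so which gene carries the tag is not settled. Both replicates carry 1 donor label, and how separate the replicates were beyond that is not stated. With 1 group there was no comparison between conditions, and in whole embryos of this age range a signal cannot be assigned to a cell type or a stage. Whether the fusion protein was the only form of the tagged protein present, and which promoter drives it, is not stated in the labels. A matched control is named there only as a possible one.

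Retained, or dead ringer (retn), is an ARID-domain DNA-binding protein that takes part in embryonic patterning, where it acts with Dorsal and Groucho in the ventral repression of dorsal-side genes, and in the development of particular neurons. TfAP-2 belongs to the AP-2 family and is needed for leg joints and for parts of the brain. Pangolin (pan) is the fly TCF, an HMG-box protein that carries the transcriptional response to Wingless: with Armadillo it activates targets, and with Groucho it represses them. In ChIP-seq, DNA crosslinked to the tagged protein is enriched and sequenced, and a peak caller marks stretches with more fragments than its background model allows. The signal of a peak is the caller's measure of that enrichment. The scaled score is derived from the irreproducible discovery rate (IDR), which weighs how alike a peak ranks in both of the peak sets compared, and stops at 1000.

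The DNA under the sites is shown first. In the conservative list made from both replicates, the windows of 100 bp on each side of the 3 summits each held a match to the same short motif, in 2 spellings. Such a match was held by 32.6% of all 611 conservative thresholded windows on the chromosome arms. At pan there were 0 matches within 100 bp of the replicate 2 summit, and 0 within 50 bp of the conservative summit. The first window below is the 201 bases centred on the TfAP-2 summit and the second is the 201 bases centred on the pan summit, both read on the + strand from the RefSeq sequence of the dm6 assembly (Release 6). The capitals mark the match to the core of the CTCF motif. CTCF is a zinc-finger protein that binds insulators in flies.
TfAP-2 site (chr3L:21604382-21604582, +): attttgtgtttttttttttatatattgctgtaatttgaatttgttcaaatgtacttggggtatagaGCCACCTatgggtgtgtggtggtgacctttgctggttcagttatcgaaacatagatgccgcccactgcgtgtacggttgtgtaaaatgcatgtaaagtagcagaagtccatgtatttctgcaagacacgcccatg
pan site (chr4:89823-90023, +): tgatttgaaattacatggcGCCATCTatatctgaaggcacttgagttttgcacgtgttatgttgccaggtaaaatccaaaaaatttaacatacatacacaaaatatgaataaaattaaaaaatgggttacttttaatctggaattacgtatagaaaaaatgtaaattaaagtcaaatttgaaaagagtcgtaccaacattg
In both windows the capitals stand on the opposite strand. On that strand, with 10 bases on each side, the stretches read as follows.
TfAP-2 core (chr3L:21604438-21604464, -): acacacccatAGGTGGCtctatacccc
pan core (chr4:89832-89858, -): cttcagatatAGATGGCgccatgtaat
The core itself was AGGTGGC at TfAP-2 and AGATGGC at pan. The window at retn also held 1 match, AGGTGGC on the - strand; its sequence is not shown.

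Each of the 3 genes held exactly 1 thresholded peak in each of the 4 thresholded lists. These are a conservative list made from both replicates (629 peaks), an optimal list made from both (973 peaks), and a list for each replicate (550 peaks for replicate 1 and 742 for replicate 2). The 3 sites were thus 3 of 629 conservative peaks, and 0.486% of the 129448 candidate peaks of the conservative ranked list passed the threshold. The same 3 sites were thresholded in the optimal list, where 0.694% of candidates passed, in replicate 1, where 0.529% passed, and in replicate 2, where 0.667% passed. The genes were chosen for these signals, so nothing is read from those shares. In all 4 lists the 3 sites had the highest possible score of 1000, as did 422 of the 629 conservative peaks, 466 peaks of replicate 1 and 632 of replicate 2. The lowest score in any of the thresholded lists was 830.

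The retn site had a signal of 2135 in replicate 1, where it ranked 2 of 550, and 2722 in replicate 2, where it ranked 1 of 742. The peak above it in replicate 1, with a signal of 2314, lay in an intron of Hr4, which encodes a nuclear receptor of the ecdysone response. In the lists made from both replicates retn had the highest signal, 4828, which was 38.0 times the median of the conservative list; the multiples were 29.6 in replicate 1 and 38.9 in replicate 2. The conservative and optimal lists gave the same signals at retn, TfAP-2 and pan, so they are not separate measurements of these sites. Whether the replicate lists and those made from both were scaled alike is not stated, so their signals are set side by side only.

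The TfAP-2 site had a signal of 1417 in replicate 1, at rank 11, and 1826 in replicate 2, at rank 10. It ranked 9 in the conservative and optimal lists with a signal of 3227. This was 25.4 times the conservative median, 19.7 times that of replicate 1 and 26.1 times that of replicate 2. In each list TfAP-2 stood below retn and above pan. The ratio of retn to TfAP-2 was nearly the same in both replicates, 1.51 in replicate 1 and 1.49 in replicate 2.

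The pan site was the weakest of the 3 in every list. Its signal was 400 in replicate 1, at rank 83, and 576 in replicate 2, at rank 90. With a signal of 967 it ranked 84 in the conservative and optimal lists, 7.60 times the conservative median, 5.55 times that of replicate 1 and 8.23 times that of replicate 2. The ratio of TfAP-2 to pan was 3.54 in replicate 1 and 3.17 in replicate 2. In both replicate lists −log10 IDR at pan was 5, the ceiling of the measure, as it was for retn and TfAP-2 in every list. In the lists made from both replicates pan was below it, at 3.68 in the conservative list and 4.12 in the optimal list. Within replicate 1 the ranked list gives the signals of both peak sets it compared, which the labels do not identify; these were 1.54-fold apart at pan, 1.11-fold at retn and 1.08-fold at TfAP-2, beside a median of 1.18-fold over the replicate's thresholded peaks. In replicate 2 the gap at pan was 1.09-fold.

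**Figure D1:**
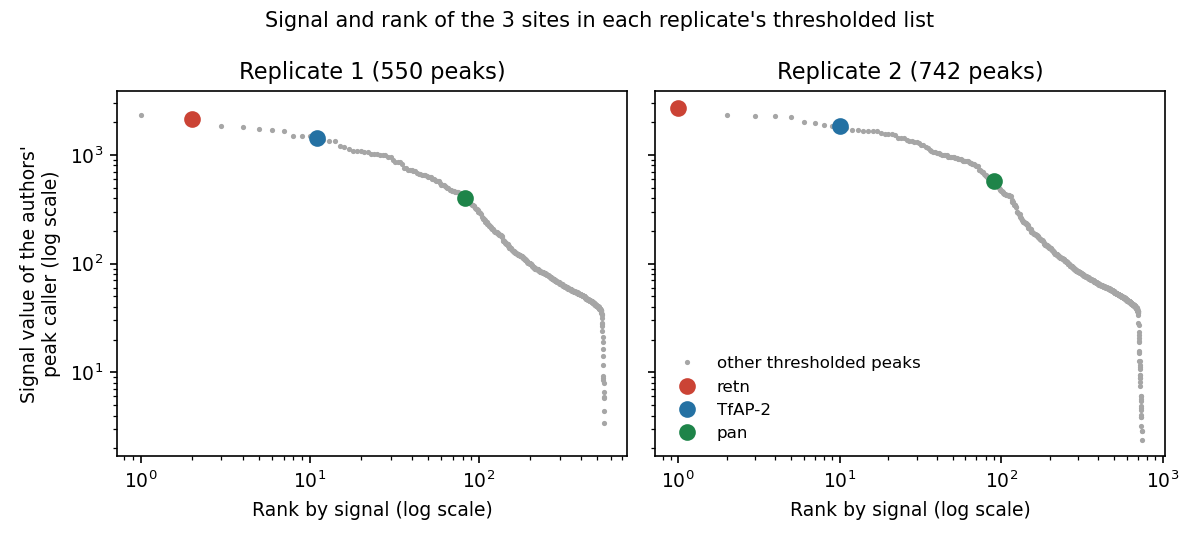
Signal of each thresholded peak (y axis, log scale) against its rank (x axis, log scale) in replicate 1 and in replicate 2; each grey point is 1 peak, and coloured points mark the sites at retn, TfAP-2 and pan. The retn site stands at rank 2 and rank 1, TfAP-2 at 11 and 10, and pan at 83 and 90, where both curves have begun to fall steeply.

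The retn site lay near the end of the gene. The gene (FBgn0004795) spans chr2R:23632610-23654820 on the + strand, 22211 bp with 5 annotated transcripts. The conservative peak covered chr2R:23652185-23652648 with its summit at position 23652428, which is 19818 bp from the gene's start, or 89.2% of its length. The summit fell in a 349 bp intron (chr2R:23652154-23652502) that all 5 transcripts share, 74 bp from its downstream end, and 99 bp of the 464 bp peak were exon. The nearest start of a retn transcript was 6235 bp upstream, at position 23646193. The next gene starts were those of lncRNA:CR45153, a non-coding RNA gene inside retn, at 13334 bp to the left, and of Pde8, a phosphodiesterase gene, at 5139 bp to the right. Beyond them came Eglp2 at 35674 bp to the left and St1, a sulfotransferase gene, at 29195 bp to the right.

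The TfAP-2 site lay in introns, away from exons and transcript starts. The gene (FBgn0261953) spans chr3L:21586828-21613349 on the + strand, 26522 bp with 6 annotated transcripts. The conservative peak, 426 bp at chr3L:21604262-21604687, had its summit at position 21604482, 17654 bp or 66.6% into the gene. The summit was intronic in 4 of the 6 transcripts; the other 2 both start downstream of it, at position 21608123, 3641 bp away. The peak held 0 exon bases. The closest other gene starts were those of lncRNA:CR43940, inside TfAP-2, 9885 bp to the left, and of S1P, which encodes a protease that processes SREBP, 12894 bp to the right. After these came lncRNA:CR43939 at 27263 bp to the left and CG11307 at 13141 bp to the right.

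The pan site was the only 1 of the 3 next to a transcript start. The gene (FBgn0085432) spans chr4:69326-114270 on the + strand, 44945 bp with 9 annotated transcripts, on the small and mostly heterochromatic chromosome 4. The conservative peak, at chr4:89757-90148, had its summit at position 89923, 432 bp upstream of an internal start at position 90355, and so counts as a promoter under the 500 bp limit used. In replicate 1 the summit was 442 bp upstream of that start and in replicate 2 it was 411 bp upstream; under a limit of 250 bp it would be intronic. The summit was in an intron of the other 8 transcripts, 20597 bp or 45.8% into the gene, and the peak held 0 exon bases. Outside pan, the next gene starts were those of RpS3A, a ribosomal protein gene, 22716 bp to the left, and Ank, an ankyrin gene, 39529 bp to the right. They were followed by snoRNA:CD-24 at 24278 bp to the left and anne at 42297 bp to the right. An INE-1 transposon copy lay 639 bp from the pan summit, while the nearest annotated transposon was 33165 bp from the TfAP-2 summit and 115281 bp from the retn summit.

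The replicates placed the summits of retn and TfAP-2 within a few bases of each other, and that of pan less closely. At retn the summits were 2 bp apart, at TfAP-2 7 bp and at pan 31 bp. Over the 372 peaks thresholded in both replicates the median distance was 13.5 bp, with quartiles of 5 and 30.25 bp, so retn and TfAP-2 were closer than the median and pan lay just past the upper quartile. At each gene the replicate 1 peak lay wholly inside the replicate 2 peak: 380 bp within 480 bp at retn, 354 bp within 435 bp at TfAP-2 and 291 bp within 386 bp at pan. Replicate 2 peaks were also longer over the whole list, with a median length of 360 bp against 336 bp. The retn and TfAP-2 peaks were longer than these medians in both replicates, and the pan peak was shorter in replicate 1.

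**Figure D2:**
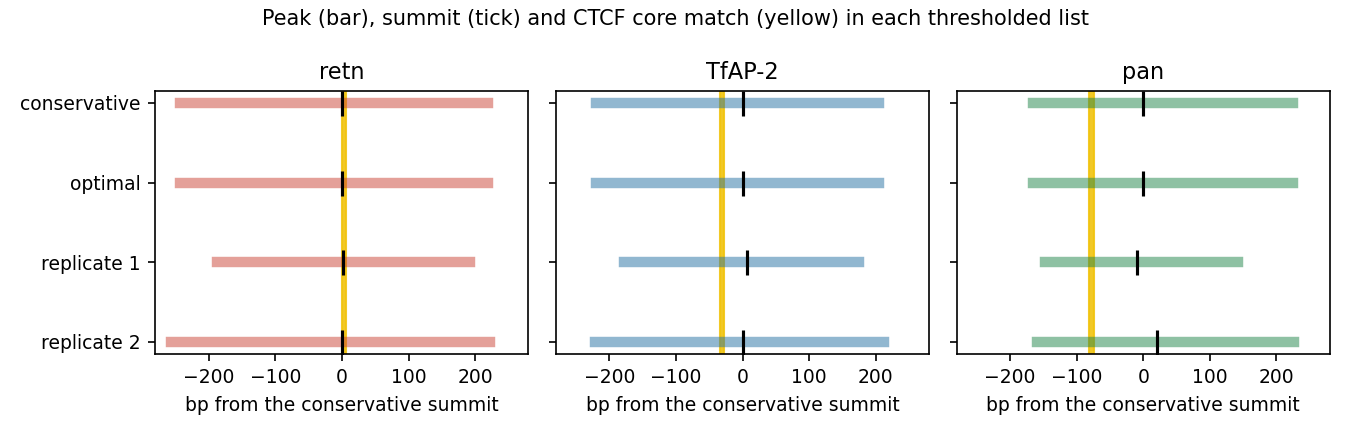
Extent of each thresholded peak (bar), its summit (black tick) and the CTCF core match (yellow band) at retn, TfAP-2 and pan, in bp from the summit of the conservative list; rows are the 4 lists. The core match lies 3 bp from the retn summit, 31 bp from the TfAP-2 summit and 78 bp from the pan summit, and the replicate summits of pan are 31 bp apart.

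Around retn and TfAP-2 the thresholded site stood among many weak candidates. At retn there were 38 candidates in the conservative ranked list, 30 in replicate 1 and 26 in replicate 2. The second strongest had a signal of 27.4 in replicate 1, 77.9-fold below the site, and 28.7 in replicate 2, 94.9-fold below it. Those second peaks lay at different places, 8665 bp and 4403 bp from the site. At TfAP-2 there were 34 candidates in the conservative list, 20 in replicate 1 and 29 in replicate 2. The second strongest there had 23.6 in replicate 1, 60.0-fold below the site, and 23.0 in replicate 2, 79.4-fold below it. Of the weaker candidates, 14 of 29 in replicate 1 and 12 of 25 in replicate 2 overlapped a candidate of the other replicate at retn, and 13 of 19 and 13 of 28 did at TfAP-2. No candidate other than the 3 sites passed the threshold at these genes; the highest score below it at retn was 491 in the conservative list and 413 in the optimal list, and at TfAP-2 327 and 556.

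The pan gene, the longest of the 3, was nearly empty of other candidates. Its site was the only candidate in the conservative, optimal and replicate 1 ranked lists. In replicate 2 there were 6 candidates, and the second strongest had a signal of 20.5, 28.0-fold below the site; 0 of the 5 weaker ones overlapped a replicate 1 candidate. In the conservative list this came to 0.182 candidates per 10 kb at pan, against 11.8 at retn and 9.31 at TfAP-2. Candidates were sparse along the whole of chromosome 4, with 0.631 per 10 kb, against 9.21 for arm 2R and 8.89 for arm 3L. In replicate 2 chromosome 4 had 2.59 per 10 kb. Candidates at the edge of the 5 kb margin were weak, in the conservative list: at retn 10.7 just inside, 4782 bp from the gene, and 10.3 just outside, at 5209 bp. At TfAP-2 the last inside, at 2903 bp, had 26.1 and the first outside, at 18904 bp, 28.1, and at pan the first outside was 37595 bp away with 26.6.

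**Figure D3:**
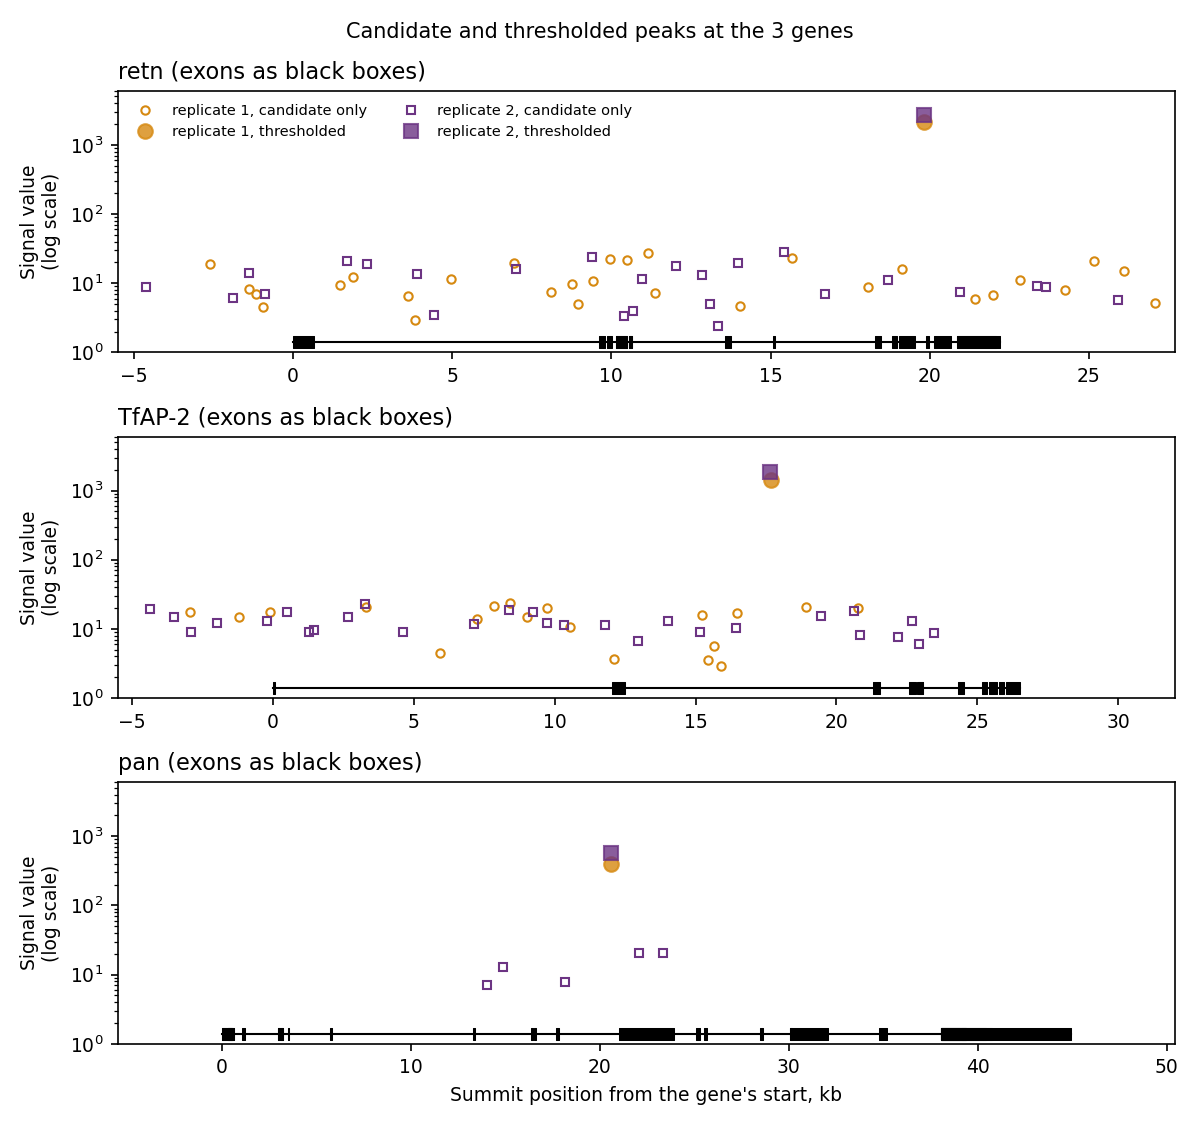
Signal of every candidate peak (y axis, log scale) by the position of its summit from the gene's start (x axis, kb) at retn, TfAP-2 and pan, with exons as black boxes; circles are replicate 1, squares replicate 2, and filled symbols are thresholded. At each gene 1 filled pair stands well above the open symbols, by 28.0-fold or more, and pan has open symbols in replicate 2 only.

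No site had another thresholded peak of the conservative list within 5 kb. In that list the closest to retn was 33988 bp to the right, in an intron of St3, with a signal of 200, and the next to the left was 726223 bp away; the optimal list had 1 at 223821 bp to the left, in CG9815, with a signal of 60.9. The closest to TfAP-2 was 48484 bp to the right, in an intron of CG43980, with a signal of 893. The closest to pan was 326643 bp to the right, near lncRNA:CR43437. That peak had a signal of 1454 and rank 57, above pan, and these were the only 2 thresholded peaks of chromosome 4 in the conservative list; replicate 2 had 3.

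The match to the CTCF core was at the summit of retn and farther off at the other sites. The core was searched on both strands, within 100 bp of the summit, as AGAGGGC or AGATGGC and also as AGGGGGC or AGGTGGC. Its centre was 3 bp from the conservative summit at retn, 31 bp at TfAP-2 and 78 bp at pan. By replicate the distances were 1 and 3 bp at retn, 38 and 31 bp at TfAP-2, and 68 and 99 bp at pan, where the match runs over the edge of the replicate 2 window and is not counted there. Windows holding the core made up 32.6% of 611 conservative thresholded windows on the chromosome arms and 9.27% of the 125886 candidate windows outside that list. Among the 199 thresholded windows with a core the median distance was 20 bp; 6 had it closer to the summit than retn, 130 closer than TfAP-2 and 185 closer than pan.

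Other words were counted in the same windows. GGCGCC or GGCGCT, which can overlap the last bases of the core, had 3 matches at retn, 2 at pan and 0 at TfAP-2, and occurred in 28.2% of thresholded windows against 11.7% of other candidate windows. GGCGCC is its own reverse complement and so counts on both strands: this gives both matches at pan, where it overlaps the core, and 2 of those at retn, where the GGCGCT overlaps it. Both matches at pan fell outside the window around the replicate 2 summit, as the core did, and within 50 bp of the conservative summit there were 0. The ARID word, AATTAA or GATTAA, had 1 match at retn and 3 at pan, and occurred in 45.3% and 27.0% of windows; within 50 bp the counts were 0 and 2, and within 250 bp retn and pan had 4 each. The TATA word, TATAAA, had 1 match at TfAP-2, and occurred in 37.0% and 14.6%; it was outside 50 bp, and within 250 bp pan had 1 as well. GAGAG, the GAGA factor word, had 1 match at retn, none of it within 50 bp, and occurred in 122 of the 611 thresholded windows and 23.0% of the others. TATCGATA, the DRE word, had 0 matches at all 3 genes, against 2.78% and 0.375%. For CTTTGA, the word searched for TCF, the factor pan encodes, and GCCNNNGGC, that for AP-2, the windows of all 3 genes held 0 matches; the shares were 12.1% and 11.4% for TCF and 3.11% and 5.96% for AP-2. Within 250 bp TfAP-2 had 1 match to the TCF word. The pan window was poor in G and C, at 28.9%, while retn had 44.8% and TfAP-2 40.3%, beside a median of 36.3% for thresholded windows and 46.8% for other candidates.

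The 3 sites were compared over the core with 10 bases on each side, 27 in all. Identical positions numbered 14 for retn and TfAP-2, 14 for retn and pan, and 13 for TfAP-2 and pan. These counts include the core, where the pairs were identical at 7, 6 and 6 bases in that order. Right after the core, retn and pan shared 2 bases and the other pairs 0. The pan stretch had close relatives elsewhere among the peaks. Compared with the core stretches of the 198 other thresholded windows that hold a core, its best match was identical at 26 of 27 positions, against 19 for retn and 18 for TfAP-2; the median best match was 15 for pan and 13 for each of the others.

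This led to a search of the 7 chromosome arms, on both strands, for stretches like each of the 27 bases, a step chosen after the sequences were seen. Allowing up to 5 mismatches, the pan stretch had 8 other copies, and 5 of these lay in a conservative thresholded peak. Each of those 5 was also thresholded in replicate 1 and in replicate 2. The copy with 1 mismatch is the match at 26 of 27 positions found above among the peaks, so its place in a peak was known beforehand. The share of all core words of the genome that lie in thresholded peaks was not computed, so the count has no background beside it. Those 5 copies are shown after pan in the order of their mismatches to it, with the bases aligned to the core in capitals.
pan (chr4:89832-89858, -): cttcagatatAGATGGCgccatgtaat
CG43867 intron, 1 mismatch (chrX:843508-843534, -): cttcagatatAGATGGCgccacgtaat
intergenic near mir-9388, 3 mismatches (chr3L:22940380-22940406, -): cttaagatatAGATGGCgtcatgtgat
intergenic near lncRNA:CR43437, 4 mismatches (chr4:416572-416598, +): catcagatatAGATGTCgccatgcatt
CG10357, 5 mismatches (chr3L:3616605-3616631, +): cttcagaaatAGATGCCgccacctaac
intergenic near RunxA, 5 mismatches (chrX:20632121-20632147, -): tatcagaaatAGATGGCgccacgtgat
The stretches were picked for likeness to pan, so sharing agatat or agaaat just before the core comes partly from that choice. Of the copies under no thresholded peak, that near para also reads agatat there, and those near Trpml and in CG42637 read agatgt. The copies near lncRNA:CR43437 and in CG10357 do not hold a full core word at all.

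Apart from CG10357, whose signals were 1480 in replicate 1 and 2302 in replicate 2, the sites with copies had signals of the same order as pan. The copy in the CG43867 intron had 386 in replicate 1 and 505 in replicate 2, just below pan in both. The copy near mir-9388 had 532 and 611, that near lncRNA:CR43437 458 and 990, and that near RunxA 424 and 804. In the conservative list the copies ranked 97, 77, 57, 5 and 73 in the order of the sequences, beside 84 for pan. The copy near lncRNA:CR43437 is the other conservative thresholded peak of chromosome 4, so both peaks of that chromosome in that list carried a version of the stretch. The core-aligned bases were 70, 36, 19, 49 and 152 bp from the summits.

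A close copy was not always under a thresholded peak. The 3 copies without 1 all had 5 mismatches.
intergenic near Trpml (chr3L:19714278-19714304, -): cttcagatgtAGGTGGCgcaatgtttt
CG42637 intron (chr3L:19745694-19745720, -): cttcagatgtAGGTGGCgcaatgtttt
intergenic near para (chrX:16535459-16535485, +): attcagatatAGATGGCgcctgttgat
The first and second of these are letter for letter alike, and each lies 4037 bp from its nearest transcript start. Both had 0 candidates in the conservative ranked list. Whether reads could be told apart between these alike places was not tested, so a missing candidate there may not mean a missing signal. The copy near para, the gene of the voltage-gated sodium channel, was a candidate with a signal of 45.0 and a score of 238. With up to 4 mismatches, all 4 stretches including pan were thresholded; with up to 6 it was 6 of 13, and with up to 7 it was 8 of 36. The retn stretch had 0 other copies with up to 5 mismatches and 46 with up to 7, and the TfAP-2 stretch had 1 and 26. Of these, 0 lay in a conservative thresholded peak. How many stretches would be met by chance at 7 mismatches was not computed, so those found at that limit may be unrelated to the sites.

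**Figure D4:**
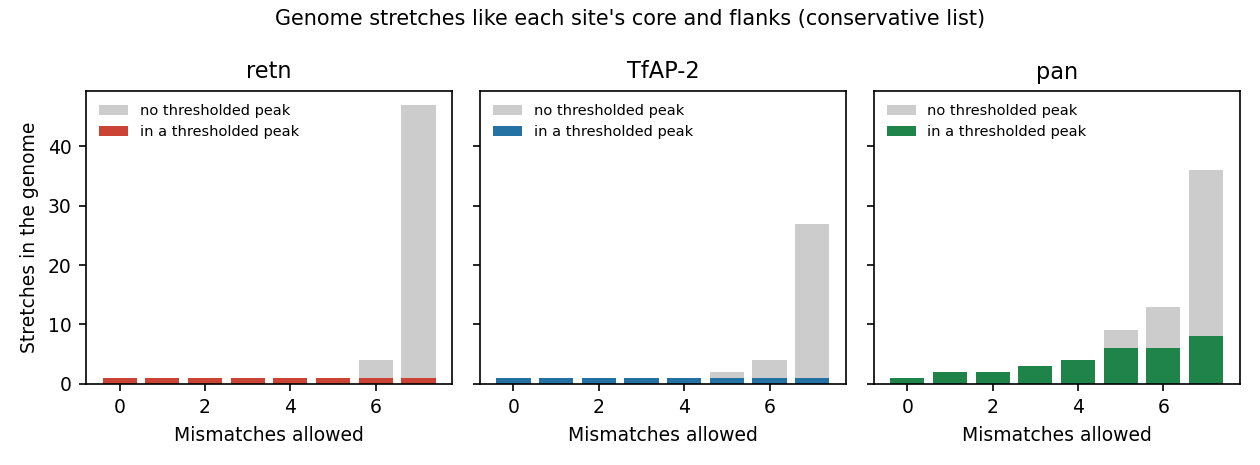
Number of stretches on the chromosome arms (y axis) that match the 27 bases around the core at retn, TfAP-2 or pan with at most the given number of mismatches (x axis), the site itself included; coloured parts lie in a conservative thresholded peak and grey parts do not. The coloured part stays at 1 for retn and TfAP-2 and reaches 6 of 9 for pan at 5 mismatches.

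The peaks most like the 3 sites in their ranks in both replicates were found among the 373 conservative peaks that overlap a thresholded peak of each replicate. Likeness was the distance between log ranks in replicate 1 and replicate 2. For retn these were a site with a conservative signal of 4053 in EcR, whose product is the ecdysone receptor, a site near CG13306 with 4111 and the Hr4 intron site with 4552. For TfAP-2 they were sites near CG7785, with 3018, near CG15615, with 3421, and in lncRNA:iab8, a non-coding RNA of the bithorax complex, with 2911. For pan they were sites near lncRNA:TS6, with 1042, near CG14321, with 933, and the CG43867 intron site already named. Each of the 9 windows held at least 1 core match, beside 32.6% of all 611 conservative thresholded windows on the arms. The share among peaks of like rank was not computed, so nothing is read from this count. Measured by log signal instead, the neighbours of retn and pan were unchanged and 1 of the 3 of TfAP-2 remained.

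Among other genes of the same pathways and families, some had thresholded peaks, all at lower signals than retn and TfAP-2. A conservative summit lay in the body or within 5 kb of 9.42% of the 18277 annotated genes, a share that takes no account of gene length. Of 29 Wingless pathway genes besides pan, 8 had such a peak. The highest were at the ligand gene Wnt4, with a signal of 1670 at rank 44, at dlp, a glypican gene, with 1530, and at the co-receptor gene arr, with 1276, each above pan; the peaks at dlp and arr were intergenic. The coactivator gene nej had 663, and gro, Wnt6, sgg and dsh had between 75.3 and 132. The gro and sgg peaks lay within those genes, the Wnt6 peak was intergenic, and the dsh peak lay in an intron of CG1737. The nej peak lay more than 500 bp before the start of nej, so the promoter class of that peak came from another gene. Of 6 genes of Dorsal-mediated repression, the process in which retn acts, gro was the only 1 with a peak. Of the 4 other ARID genes it was osa, with 2 peaks of 156 and 138. Among 13 other HMG-box genes 6 had a peak, led by Sox100B with 498. That peak too lay more than 500 bp before the gene's start, with its promoter class from another gene. HmgD and HmgZ share their peaks, and Sox21a and Sox21b share an intergenic peak. For TfAP-2, N was the only 1 of 11 matched leg-patterning genes, with 76.8.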

How the data were processed

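For the 2 replicates 8 peak lists were read: a thresholded and an IDR-ranked list for each replicate, and the conservative and optimal pairs made from both replicates. Per the labels, the authors deposited them on dm6; which aligner and peak caller made them was not given in the sources used. The authors deposited a scaled IDR score, a signal value from the peak caller, −log10 IDR values, and a summit offset (another kind of value, in bases from the peak's start). Read counts were not used, so the depth behind each signal is unknown and no interval was computed. From these files, peaks were ranked by signal within each list, and assigned to Ensembl release 115 genes, leaving transposons out. Position classes were promoter (within 500 bp of a transcript start), UTR, exon, intron or intergenic. Motifs and the stretches like the cores were searched in RefSeq sequence of the same assembly, 100 bp each side of a summit or along the 7 arms. Overlap meant at least 1 bp. Python 3.11.15, pandas 2.3.3, pysam 0.24.0 and matplotlib 3.10.9 were used. The motif scan was tested on words planted in simulated sequence. The steps that pick peaks within or overlapping an interval were tested on a small made-up example. Position classes and neighbouring genes were not tested in this way. The genes named are the 3 members, the neighbours of each site, the listed genes with a peak and the 3 peaks most like each site. The members and lists were chosen with earlier results of these data known. The motif words were likewise already known or chosen with those results known. Alternatives were other lists, each replicate alone, signal per length, other windows and other distances; no p-values were computed.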

Additional observations from a re-analysis of the deposited data

How the results depend on the processing

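Of 192 alternatives, 170 left a count within 1.5 times its value, or another value within 1 SD between replicates, and 22 moved it further. Some of the 170 could not have moved. A word absent within 100 bp of a summit is also absent within 50 bp, and a site in a gene body is kept under a smaller margin. The total is therefore not a measure of how stable the results were. Taken from 1 replicate alone, the rank of retn ranged from 1 to 2, that of TfAP-2 from 10 to 11 and that of pan from 83 to 90. By signal per base of peak, TfAP-2 ranked 8 and pan 102. Candidates at TfAP-2 ranged from 20 to 29 and at pan from 1 to 6 over the single replicates, against 34 and 1 in the conservative list. The pan core had 0 matches in a window of 50 bp; over single replicates it had 0 to 1, because the match reaches past the window around the replicate 2 summit. The GGCGCC matches at pan went from 2 to 0 under the same changes. Within 250 bp of a start, 0 sites were in promoters. Leg-patterning genes with a peak numbered 0 to 1 over single replicates, N being absent without replicate 2. By log signal, 1 of 3 neighbours of TfAP-2 remained. For copies of the pan stretch, a step added after seeing the data, the count in thresholded peaks was 3 with at most 3 mismatches and 6 in every list with 5. The cause of these shifts was not tested. No paired analysis was possible because the labels give 1 group only. The absence of read counts limits how firmly weak candidates can be described.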
